A study of Mus musculus with 8 samples.

Results

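Peroxisomes are single-membrane organelles that oxidise fatty acids too long or too branched for mitochondria, along with 2-hydroxy acids, D-amino acids and other substrates, and that carry out the first steps of ether lipid synthesis. Their enzymes are made in the cytosol and imported by peroxins, the products of the Pex genes, most of them through the import receptor Pex5 and a smaller set through Pex7. The genes described here are 42 mouse genes listed by function: 31 that encode peroxisomal enzymes, a solute carrier or membrane proteins, and 11 Pex genes that assemble and divide the organelle. Of these, 41 had probes on the array and passed the filter on missing values (30 of 31 outside the Pex genes and 11 of 11 Pex genes), among 17220 named genes tested in all. Paox was not analysed here. Hao2 was singled out because it had the largest increase of any named gene between the diets, and the list was drawn up with that comparison known. The diet differences below are therefore descriptions of these genes, and none of them is offered as independent evidence about the list.

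Colon RNA of male mdr1a-/- mice was compared between 2 diets with 4 mice each: AIN-76A alone, or AIN-76A with 0.2% curcumin, a polyphenol from turmeric. All mice in both groups lack the drug efflux transporter gene Abcb1a, and this line is prone to colitis; the strain is given as Swiss for the control mice, and for the curcumin mice the labels name only the genotype. Per the design text, mice were followed from 7 to 24 weeks of age, but the labels state 7 weeks. High scorers for histological injury represented the control diet and low scorers the curcumin diet, so the effects of diet and of injury cannot be told apart. The RNA of a mouse (Cy3) and a reference RNA (Cy5) shared a 2-colour Agilent array, 1 array for every mouse. In whole colon, fewer cells of a type and less RNA per cell cannot be told apart.

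All values are log2 ratios of the 2 channels as deposited, and a difference is the curcumin mean minus the control mean on that scale. The ratio's direction is not stated in the labels. Mouse RNA over reference is the likely one, because on all 8 arrays the median log ratio lay between -3.44 and -3.00 for 12 liver genes and between -2.71 and -1.97 for 10 kidney genes, and colon RNA should hold less of both; if the ratio ran from reference to mouse, all signs given here would be opposite. Read that way, the reference held more liver and kidney transcripts than the colon samples, and many peroxisomal enzymes are abundant in both organs. Ratios of different genes are not compared as levels. The labels describe the reference as colon of Swiss mice on the same diet as the sample, wild type on the control arrays. With colon RNA in both channels such low liver and kidney ratios would not be expected, so the direction read above sets that label aside. The design text speaks of a single reference, and whether both diets had a common reference was not tested. Across 24030 gene-level measurements the median standard error of a diet difference was 0.11. Abcb1a itself had log ratios between -0.67 and 0.05, near the reference in both groups, so they do not show the loss of the gene; whether its probe lies in the disrupted stretch is not given in the sources used here. The slide numbers fall into 2 ranges, of which the first holds all control mice with curcumin mice 1 and 2, and the other holds curcumin mice 3 and 4.

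The 250 bases before the annotated start of 4 genes are shown, because Hao2, Ech1 and Phyh were the members past the threshold and Hao1, which did not pass, is a close relative of Hao2. The sequences are from RefSeq on build GRCm38.p6, written 5′ to 3′ along the gene's strand. They lie at chr3:98893231-98893480 (minus strand) for Hao2, chr2:134554353-134554602 (minus) for Hao1, chr7:28825088-28825337 (plus) for Ech1 and chr2:4918746-4918995 (plus) for Phyh. Capitals mark GTTAAT or its reverse complement, the half-site of the hepatocyte nuclear factor 1 motif, which was chosen after the sequences were seen.
Hao2: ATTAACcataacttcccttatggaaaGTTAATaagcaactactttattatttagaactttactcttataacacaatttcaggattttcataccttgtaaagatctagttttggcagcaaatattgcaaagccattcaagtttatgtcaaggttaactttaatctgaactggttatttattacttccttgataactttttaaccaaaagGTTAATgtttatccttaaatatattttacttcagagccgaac
Hao1: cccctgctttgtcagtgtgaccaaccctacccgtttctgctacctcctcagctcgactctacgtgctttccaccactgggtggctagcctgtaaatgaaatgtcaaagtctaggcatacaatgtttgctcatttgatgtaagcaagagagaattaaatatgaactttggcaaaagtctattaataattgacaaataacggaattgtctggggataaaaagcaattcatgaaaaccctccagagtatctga
Ech1: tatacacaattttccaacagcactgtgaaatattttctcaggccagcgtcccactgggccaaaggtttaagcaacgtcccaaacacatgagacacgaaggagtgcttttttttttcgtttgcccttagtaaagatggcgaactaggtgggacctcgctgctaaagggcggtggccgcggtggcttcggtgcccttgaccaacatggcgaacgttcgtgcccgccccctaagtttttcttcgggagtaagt
Phyh: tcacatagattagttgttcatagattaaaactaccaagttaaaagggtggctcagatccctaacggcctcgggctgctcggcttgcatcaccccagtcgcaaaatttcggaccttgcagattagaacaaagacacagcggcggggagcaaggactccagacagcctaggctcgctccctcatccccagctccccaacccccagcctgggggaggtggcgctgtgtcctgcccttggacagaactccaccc

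The Hao2 window stood apart in base composition. It held 28.4% G and C, the lowest of the 35 members with a window, and 0.956% of 32851 mouse windows were lower. Hao1 had 41.6%, Ech1 51.2% and Phyh 56.4%, against a median of 56.4% over the members and 52.4% over all windows. On either strand GTTAAT occurred 3 times before Hao2, beginning 250, 224 and 42 bases before the start, and in no other member's window. At least 1 copy was in 6.43% of all windows and 3 or more in 0.0213%. The motif is itself rich in A and T, and windows of like base composition were not compared. These shares therefore do not tell how unusual 3 copies are in a window so low in G and C. The direct repeat bound by PPARα with its partner RXR, AGGTCA followed by any 1 base and AGGTCA again, was in no member's window and in 0.0335% of all. With AGGNCA in place of both copies it was again in no member's window and in 0.338% of all windows. These matches describe letters in 1 short window and say nothing of whether a factor binds there.

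Hao2 encodes a peroxisomal oxidase of long-chain 2-hydroxy acids. Its log ratios were -2.49, -1.5, -2.87 and -3.11 in control mice 1 to 4 and 1.60, 1.88, 0.58 and 0.93 in curcumin mice 1 to 4. All 4 curcumin mice were above the reference and all 4 control mice below it, with no overlap. The means were -2.49 ± 0.71 (SD, n = 4) and 1.25 ± 0.60 (SD, n = 4), a difference of 3.74 (SE 0.38) or 13.4-fold, and the first rank among named genes ordered by increase. The 2 curcumin mice of the shared slide range were higher than the other 2, and within that range the difference was 4.23 (SE 0.42). Control mouse 2 was the highest of its group, and a single probe measured the gene.

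Hao1 encodes the glycolate oxidase of liver. It had log ratios of -2.29, -2.01, -2.12 and -2.55 in control mice and -2.47, -2.40, -2.59 and -2.71 in curcumin mice. The groups overlapped through control mouse 4, and the difference of -0.30 (SE 0.12) was not past the threshold, an adjusted p under 0.05 over all measurements in limma. Agxt encodes the aminotransferase that removes the glyoxylate made by glycolate oxidase. Its log ratios were -3.46, -3.12, -3.55 and -3.70 on the control diet and -3.80, -4.10, -3.94 and -3.91 with curcumin. Every curcumin value lay below every control value, yet the difference of -0.48 (SE 0.13) did not pass either. Under quantile normalization the difference of Hao1 was -0.09 and that of Agxt -0.19.

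**Figure D1:**
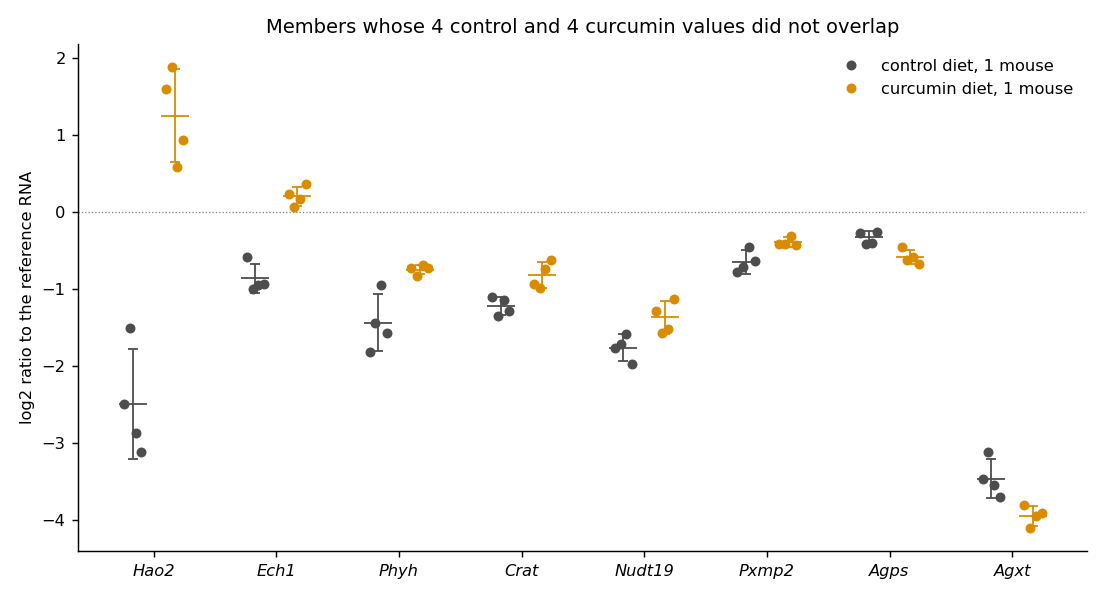
Log2 ratio to the reference RNA (vertical axis) for the 8 members whose groups did not overlap, with 1 point per mouse, the mean as a long dash and the SD over 4 mice as bars, control in grey and curcumin in orange. Hao2 ran from a mean of -2.49 to 1.25, and Ech1 and Phyh also passed the threshold. Crat, Nudt19, Pxmp2, Agps and Agxt did not pass, with differences from -0.48 to 0.40.

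Past that threshold were 3 of the 41 members, Hao2, Ech1 and Phyh, all higher with curcumin, and none was lower. Over all measurements 4.73% were called, 2.10% higher and 2.63% lower. The groups did not overlap for 6 members with higher values (Hao2, Ech1, Phyh, Crat, Nudt19 and Pxmp2) and for 2 with lower values (Agps and Agxt), where 5.38% and 7.21% of all measurements did so. Since this comparison guided the choice of the list, nothing is read from these shares. The list's differences were spread on both sides of 0, with 22 positive and 19 negative, a median of 0.02 and quartiles of -0.17 and 0.25. Over all measurements the median was -0.02 with quartiles of -0.14 and 0.08.

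**Figure D2:**
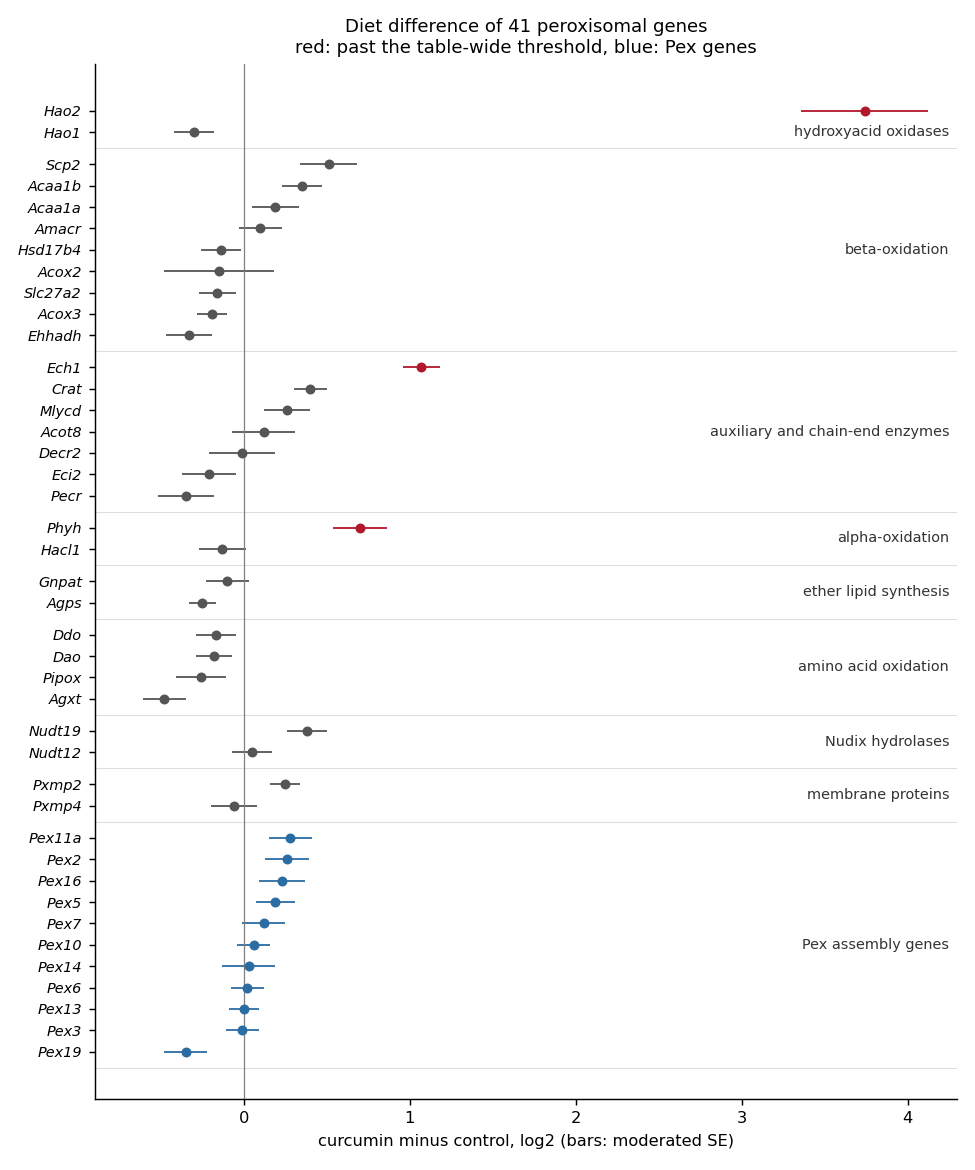
Curcumin minus control difference (horizontal axis, log2) of the 41 measured members with moderated standard errors as bars, grouped by role, red for members past the table-wide threshold and blue for Pex genes. Hao2 at 3.74 lies far from the rest, which run from -0.48 to 1.07.

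In the core of peroxisomal fatty acid β-oxidation none of 9 members passed, 4 had positive and 5 negative differences, and the median was -0.14. The activating and transport protein Slc27a2 had -0.16 (SE 0.11). Of its 3 probes, 2 to the reference transcript lay at control means of -3.60 and -1.75, while that to another cDNA lay at -0.10; their differences were -0.23, -0.23 and -0.03. Among the acyl-CoA oxidases, Acox3, which acts on branched chains, had -0.19 (SE 0.09). Acox2, the oxidase of bile acid side chains, varied most among mice, with -1.89, -0.39, -1.32 and -1.90 on the control diet and -2.02, -1.21, -1.30 and -1.55 with curcumin. Its difference was -0.15 (SE 0.33), and control mouse 2 stood well above all the others; without that mouse it was 0.18.

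Of the bifunctional enzymes that hydrate and dehydrogenate the chain, Ehhadh had -0.33 (SE 0.14), or -0.10 under quantile normalization, and Hsd17b4 -0.14 (SE 0.12), or 0.03 within the shared slide range. Of the thiolases that cut it, Acaa1b had 0.35 (SE 0.12) and Acaa1a 0.19 (SE 0.14). Acaa1a and Acaa1b are near-identical copies, so their probes may read both, and the 3 Acaa1a probes gave differences of 0.16, 0.39 and 0.01. Amacr, the racemase for 2-methyl-branched chains, had 0.10 (SE 0.13), or 0.40 under quantile normalization. None of these 5 passed.

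Scp2 encodes sterol carrier protein and a thiolase for branched chains. It had log ratios of -1.62, -1.53, -1.47 and -1.71 in control mice and -0.96, -1.63, -0.90 and -0.80 in curcumin mice. Curcumin mouse 2 sat among the controls and the other 3 above them all. The difference was 0.51 (SE 0.17) and did not pass. Without curcumin mouse 2 it was 0.70, with an adjusted p of 0.00745 in limma.

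Enzymes that handle double bonds and chain ends held the next largest difference of the list after Hao2. Ech1 encodes a dienoyl-CoA isomerase of peroxisomes and mitochondria. Its log ratios were -0.58, -1.0, -0.95 and -0.93 with the control diet and 0.23, 0.06, 0.17 and 0.36 with curcumin, so that the groups lay on opposite sides of the reference. The difference was 1.07 (SE 0.11), 2.10-fold, rank 125 among named genes ordered by increase, and 1.01 (SE 0.14) within the shared slide range. Crat, the carnitine acetyltransferase that lets acetyl groups leave the organelle, had -1.11, -1.35, -1.14 and -1.29 against -0.94, -0.99, -0.74 and -0.62. Its groups did not overlap, and its difference of 0.40 (SE 0.10) came closest of the uncalled members (adjusted p = 0.0627 in limma). The remaining members of this set overlapped between the diets. Mlycd, malonyl-CoA decarboxylase, had 0.26 (SE 0.14), the thioesterase Acot8 0.12 (SE 0.19) and the dienoyl-CoA reductase Decr2 -0.01 (SE 0.20). The isomerase Eci2 had -0.21 (SE 0.16) and the enoyl-CoA reductase Pecr -0.35 (SE 0.17).

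In α-oxidation, the pathway that shortens phytanic acid from the diet by 1 carbon, the first enzyme passed the threshold and the next did not; the difference between them was not tested. Phyh, the phytanoyl-CoA hydroxylase, had -1.82, -1.44, -0.95 and -1.57 in control mice and -0.73, -0.83, -0.69 and -0.73 in curcumin mice. The curcumin mice were close together and all above the controls, of which mouse 3 came nearest. The difference of 0.70 (SE 0.16), 1.62-fold, was just inside the threshold (adjusted p = 0.0447 in limma). The call was lost in 7 of 8 fits that left out 1 array and within the shared slide range, where the difference was 0.66 (SE 0.23). Hacl1, the lyase that follows, had -0.13 (SE 0.14), or 0.08 under quantile normalization, and did not pass.

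None of the remaining members outside fatty acid oxidation passed. Of the first enzymes of ether lipid synthesis, Gnpat had -0.10 (SE 0.13), or 0.12 within the shared slide range, and Agps -0.25 (SE 0.08). Agps had -0.27, -0.41, -0.40 and -0.26 against -0.46, -0.62, -0.59 and -0.68, with no overlap, but its 2 probes gave -0.39 and -0.12. Among the amino acid oxidases, the D-amino acid oxidase Dao had -0.18 (SE 0.11), the D-aspartate oxidase Ddo -0.17 (SE 0.12) and the sarcosine and pipecolate oxidase Pipox -0.26 (SE 0.15), the last at 0.00 under quantile normalization. Nudt19, which hydrolyses coenzyme A, had -1.76, -1.71, -1.58 and -1.98 against -1.28, -1.57, -1.52 and -1.13, a difference of 0.38 (SE 0.12), with groups that barely failed to meet. Nudt12, a hydrolase of reduced pyridine nucleotides measured on 3 curcumin arrays, had 0.05 (SE 0.12). The channel-forming membrane protein Pxmp2 had -0.78, -0.72, -0.45 and -0.64 against -0.41, -0.42, -0.31 and -0.43, a difference of 0.25 (SE 0.09), also without overlap. Pxmp4, another membrane protein, had -0.06 (SE 0.14).

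The Pex genes showed no called difference. None of 11 passed in either direction and the 2 groups overlapped for all 11. At an unadjusted p under 0.05 in limma there was 1, Pex19, with the lower value. Over all measurements 4.73% were called, and 5.38% with higher and 7.21% with lower values did not overlap. An unadjusted p under 0.05 in limma was reached by 4423 of 24030. With 11 genes, nothing is read from these counts. The differences of the Pex genes ran from -0.35 to 0.28 with a median of 0.06. Pex11a, which acts in elongation and division of the organelle, had the largest positive difference. It had -0.64, -0.65, -0.19 and -0.73 in control mice and -0.13, -0.20, -0.26 and -0.50 in curcumin mice, a difference of 0.28 (SE 0.13). Control mouse 3 fell among the curcumin values. The 10 features for Pex11a share 1 accession and were averaged.

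None of the import and membrane assembly genes passed. The import receptor Pex5 had 0.19 (SE 0.12) and Pex7, the receptor that imports Phyh, 0.12 (SE 0.13). The docking proteins Pex13 and Pex14 had 0.00 (SE 0.09) and 0.03 (SE 0.16), and Pex6, an ATPase that recycles the receptor, 0.02 (SE 0.10). Of the ubiquitin ligase subunits, Pex10 had 0.06 (SE 0.10) and Pex2 0.26 (SE 0.13), with 0.34 and -0.05 from the 2 probes of Pex2. Membrane proteins are inserted by Pex3, Pex16 and Pex19, which had -0.01 (SE 0.10), 0.23 (SE 0.14) and -0.35 (SE 0.13). Of the 2 probes of Pex19, 1 gave -0.69 and the other 0.00.

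Enzymes and assembly genes were also set side by side, array by array. The median log ratio of the 30 members outside the Pex genes was -1.35, -1.31, -1.23 and -1.57 on the control arrays and -1.09, -1.09, -1.15 and -1.29 on the curcumin arrays. That of the Pex genes was -0.39, -0.43, -0.37 and -0.53 against -0.22, -0.21, -0.26 and -0.25, which did not overlap. The array mean of the same 11 genes did overlap, at -0.41 to -0.30 in control and -0.31 to -0.25 in curcumin mice. Both medians were higher with curcumin, and the gap between them was -0.93 ± 0.08 (SD, n = 4) in control mice and -0.92 ± 0.08 (SD, n = 4) in curcumin mice. Of the summaries of the genes' own differences, 1 had the other sign: outside the Pex genes the median difference was -0.08, while the mean was 0.15, and for the Pex genes the median and mean were 0.06 and 0.08. The mean depended on 1 gene. Over the 29 members left without Hao2, the array mean was -1.40 ± 0.11 (SD, n = 4) in control and -1.38 ± 0.02 (SD, n = 4) in curcumin mice. The number of peroxisomes was not measured.

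**Figure D3:**
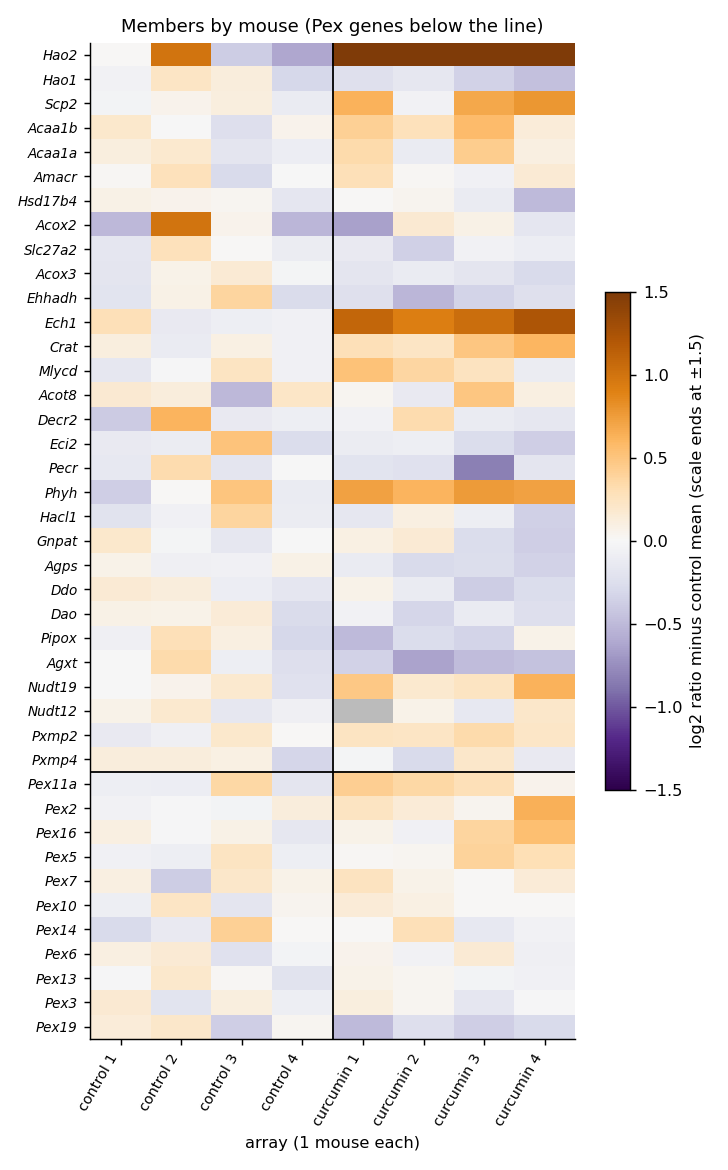
Log2 ratio of each member (rows) on each array (columns) minus the gene's mean over the 4 control mice, orange higher and purple lower, with colours ending at 1.5 in either direction and grey for a missing value. Hao2, Ech1 and Phyh are orange in all 4 curcumin mice, and the Pex genes lie below the line. Members with smaller differences were also above the control mean in all 4 curcumin mice, such as Crat, Nudt19, Pxmp2, Pex2 and Pex11a.

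Mice within a diet differed in these genes as well. Among the 41 members, the array farthest from its own group's mean was control 3 for 13 and control 2 for 8, and curcumin 4 for another 8. The mean absolute deviation from the group mean was 0.198 for control 3 and 0.190 for control 2, against 0.137 and 0.148 for controls 1 and 4 and 0.123 to 0.163 for the curcumin mice. Control 3 was the highest control mouse for Phyh, Nudt19, Pxmp2 and Pex11a, and control 2 for Hao2, Hao1, Acox2 and Agxt.

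A further list of 53 peroxisomal genes, compiled by function, held 44 that were tested. Of these 4 were called higher and 1 lower, where 2.10% and 2.63% of all measurements were, and the median difference was -0.02. Ephx2, the soluble epoxide hydrolase, was higher by 1.25 (SE 0.20), and Cat, the catalase that removes the hydrogen peroxide made by peroxisomal oxidases, by 0.60 (SE 0.13). The log ratios of Cat were -3.30, -3.02, -3.30 and -3.20 against -2.71, -2.88, -2.38 and -2.44. Acsl3 and Acsl4, which activate long-chain fatty acids, moved in opposite directions, by 1.20 (SE 0.22) and -0.96 (SE 0.11). None of 5 genes of peroxisome division passed, with differences from -0.09 to 0.24.

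Mitochondrial fatty acid β-oxidation, the parallel pathway in the other organelle, had 5 of 17 genes called higher and none lower, with 16 positive differences and a median of 0.39. Over all measurements 2.10% were called higher and 2.63% lower, and 43.8% of the differences were positive. The lists here were chosen with earlier results of these data known, so nothing is read from their counts. The thiolase Acaa2 was higher by 1.06 (SE 0.12), the dehydrogenases Hadh and Acadm by 0.75 (SE 0.12) and 0.67 (SE 0.08), and the trifunctional protein subunit Hadhb by 0.66 (SE 0.09). Whether the mitochondrial and peroxisomal lists differed from each other was not tested. Among 21 tested genes of the fatty acid receptor PPARα and its targets, 3 were called higher and 1 lower, with a median of 0.09. Ppara itself had -1.87, -1.86, -1.72 and -2.10 in control mice and -0.77, -1.05, -1.25 and -1.28 in curcumin mice, a difference of 0.80 (SE 0.13). The lipid droplet gene Cidec was higher by 1.93 (SE 0.19), and Acadm was the remaining one; Acadm is also counted above and Cidec also among the adipocyte markers below. Angptl4, an inhibitor of lipoprotein lipase, was lower by -0.90 (SE 0.21). Other known targets, Cyp4a10 with -0.29 (SE 0.13) and Cyp4a14 with -0.27 (SE 0.10), did not pass. Other uncalled genes of this list lay higher, such as Ppargc1a with 0.75 (SE 0.18), Slc25a20 with 0.71 (SE 0.18) and Plin2 with 0.40 (SE 0.12). Others lay lower, such as Acot1 with -0.54 (SE 0.20) and Vnn1 with -0.37 (SE 0.15). At an unadjusted p under 0.05 in limma, 6 of the 21 were higher and 5 lower. Of the 21 differences 13 were positive.

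**Figure D4:**
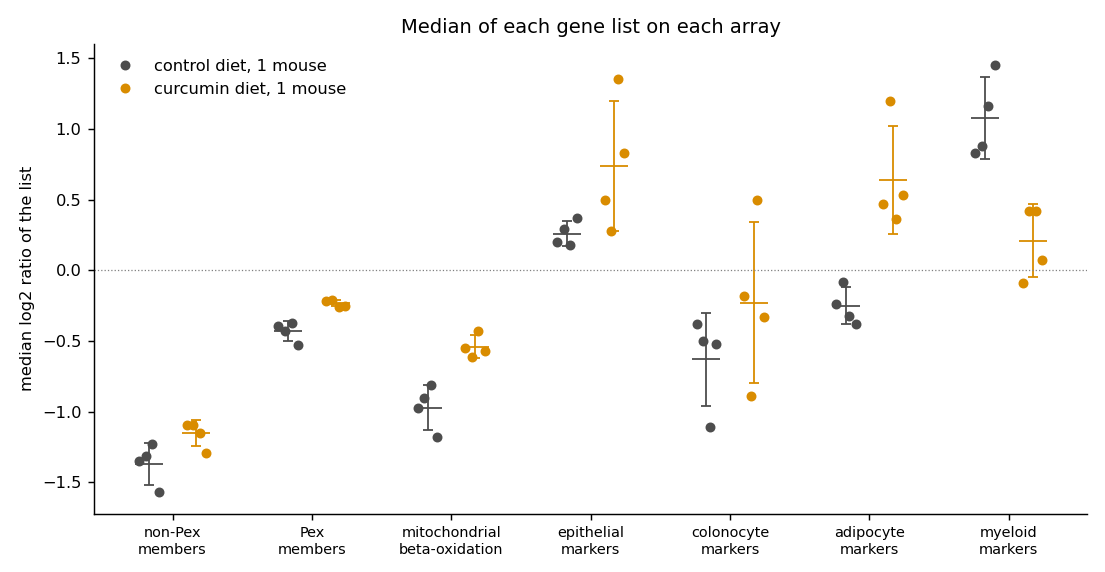
Median log2 ratio (vertical axis) of 7 gene lists on each of the 8 arrays, with 1 point per mouse, the mean as a long dash and the SD over 4 mice as bars, control in grey and curcumin in orange; genes holding the shared log ratio were left out of the lists of non-members. Mitochondrial β-oxidation genes and adipocyte markers lay higher and myeloid markers lower in the curcumin mice without overlap, while colonocyte and epithelial markers overlapped.

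Markers of other cell types are given beside these genes. The marker lists were chosen with earlier results of these data known, so nothing is read from their counts. Over all measurements 2.10% were called higher and 2.63% lower. Some bright markers hold, on 1 or more arrays, a single log ratio that many features of the array share, so that it does not tell them apart; those genes were left out of the medians here, and no peroxisomal member holds it. Of 15 colonocyte markers 7 hold it. Of the other 8, Car4 and Slc26a3 were called higher, by 2.41 (SE 0.36) and 2.17 (SE 0.21), and none was called lower. Their groups did not overlap, and they ranked 4 and 8 among named genes ordered by increase. The list's median ran from -1.11 to -0.38 on control arrays and from -0.89 to 0.50 on curcumin arrays, with overlap. Of 11 epithelial markers 5 hold it, and of the other 6, Cldn3 and Cdx1 were called higher, with medians of 0.18 to 0.37 and 0.28 to 1.35. Adipocyte markers had 3 of 6 called higher without Fabp4, which holds it, and medians of -0.38 to -0.08 and 0.36 to 1.20. Adipoq, which encodes adiponectin, was higher by 1.84 (SE 0.28). Myeloid markers had 4 of 9 called lower without Lyz2, which holds it, and medians of 0.83 to 1.45 and -0.09 to 0.42. None of 7 muscle markers passed. The part of these shifts in the differences of Hao2, Ech1, Phyh and the other members was not tested.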

How the data were processed

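The values analysed are the series' table of log2 ratios, 44290 features on 8 arrays, as deposited; limma is the tool that the submitters' processing notes name, and the authors' background correction, filters and version are not given in the sources used here. Per the labels' protocols, RNA was amplified and labelled from oligo-dT primers. Features were named from the platform annotation, with 32042 carrying 1 symbol, 47 several and 12201 none. After dropping probes measured on fewer than 3 arrays of either group, those sharing a symbol were averaged, leaving 24030 measurements. A linear model of curcumin minus control on all 8 arrays, without covariates, used lmFit and eBayes of limma 3.58.1 (R 4.3.3), with Benjamini-Hochberg adjustment over all measurements and a two-sided threshold of 0.05. Standard errors (SE) are moderated, and an SD covers the arrays of 1 group. The replicates are separate mice per the design text. No count of reads lies behind array values; the number of arrays and of probes per gene limits precision. Simulated data with 21862 genes gave back 85.0% of changes of 1 and 99.0% of changes of 2 on the log2 scale, and 13 of 197 calls were false. Changes under 1 were not simulated, though all members but Hao2 and Ech1 differed by less than that.

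The members and all 11 other gene lists were chosen with earlier results of these data known. Every member is named, and from the other lists mainly those past the threshold with the largest differences. Cyp4a10, Cyp4a14, Ppargc1a, Slc25a20, Plin2, Acot1 and Vnn1 were named after their values were seen. Promoter windows came from RefSeq, build GRCm38.p6, and 35 of 42 members had one. Figures were drawn with Python 3.11.15 and matplotlib 3.10.9. In all, 20 alternatives were run, 19 planned and 1 added after seeing the data. On each array 191 to 397 features share 1 log ratio; no member holds it, and leaving out marker genes that do was chosen after seeing the data. Replicate numbers were not taken to pair mice, since same-numbered mice deviated together with correlations of 0.17, 0.20, -0.01 and -0.02.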

Additional observations from a re-analysis of the deposited data

Results flagged for a closer look

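In 5 of 81 groups of 4 mice 1 value of a member stood apart from the other 3, where chance gives about 4. Ech1 was higher in control mouse 1, at -0.58, than in the other controls, at -1.0 to -0.93. Pecr was lower in curcumin mouse 3, at -3.26, than in the others, at -2.65 to -2.62. Acot8 was lower in control mouse 3, at -0.65, against -0.01 to 0.08. Pxmp4 was lower in control mouse 4, at -1.78, against -1.37 to -1.33. Pex5 was higher in control mouse 3, at -0.40, against -0.73 to -0.70. Ech1 was past the threshold with and without control mouse 1, and the other 4 genes under none of the settings run.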

How the results depend on the processing

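Hao2 and Ech1 kept their direction and their call under all 20 alternatives, with differences of 3.53 to 4.23 and 1.01 to 1.16. Phyh kept its direction in all 20 and its call in 9, with differences of 0.57 to 0.86 and adjusted p values of 0.00456 to 0.272 in limma. The call was lost within the shared slide range and in every fit that left out 1 array except that without control 3. It was also lost in fits to all 8 arrays, with 1 probe per gene, with slide range as a block and with the replicate block. The cause was not tested. No called difference changed sign. Over 815 member results 785 stayed within their call and spread, and 6 were newly called: Crat under quantile normalization and array weights, Nudt19 under quantile normalization, Pxmp2 and Pex19 without control 3, and Scp2 without curcumin 2.

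Of the diet differences across all measurements 1137 were called in the fit reported, 330 with slide range as a block, 175 within the shared range, 743 with the replicate block, 1800 with array weights, and 512 to 1398 when 1 array was left out. Without curcumin 4 there were 512 and without control 4 534, the fewest; without control 3 there were 1398. The replicate block kept the calls of Hao2 and Ech1 and ended that for the difference of Phyh (adjusted p = 0.0572 in limma); 1 of 4 mice correlated best with its own number. Quantile normalization gave 619 higher and 489 lower against 504 and 633, with 5 members outside the Pex genes called higher and median differences of 0.05 for these and 0.13 for the Pex genes. The median outside the Pex genes thus changes sign with the normalization, and leaving out 1 array gave -0.13 to 0.04, the highest without control 2. For the Pex genes it was 0.03 to 0.17, with 0 to 1 called lower. Subtracting the Pex median gave -0.14 in the fit reported, -0.05 with array weights and -0.21 to -0.03 leaving out 1 array. With all genes kept, colonocyte medians ran from -0.87 to -0.21 in control and 0.17 to 0.36 in curcumin mice, without the overlap seen when genes holding the shared log ratio were left out. On curcumin arrays 1, 3 and 4 these medians were 0.34, 0.35 and 0.36. Krt8, which holds the shared log ratio on all 8 arrays, had the same values there, so this separation of medians is not read as a colonocyte difference. Car4 and Slc26a3 do not hold that value and were called higher. The causes were not tested. With 4 mice a group and 1 probe for 29 members, differences near the median SE of 0.11 could not be told from 0. Differences several times larger also went uncalled, such as 0.40 (SE 0.10) for Crat and -0.48 (SE 0.13) for Agxt. An uncalled member is therefore not shown to be unchanged.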
